A study of Mus musculus with 10 samples.

Results

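The regions described here are 1083 stretches of chromatin that carried a wide peak of histone H3 lysine 9 acetylation (H3K9ac) in vehicle-treated mouse embryonic stem (ES) cells and no peak at all after inhibition of the acetyltransferase Kat2a. They were chosen from the peak positions as the DMSO peaks of 700 bp or more that no peak of the MB-3-treated cells touched, a shared stretch of 1 bp being enough to count a peak as kept. They made up 1083 of 11724 DMSO peaks (9.24%) and held 13.1% of the bases under DMSO peaks. Both the width and the absence from the MB-3 list chose these regions, so that these values are given as a description and were not tested. They are called wide lost peaks here, the 2559 DMSO peaks of 700 bp or more that an MB-3 peak did touch are called wide kept peaks, and the 6438 lost DMSO peaks under 700 bp are called narrow lost peaks.

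The cells were TNGA, a single mouse ES line with a GFP reporter in one of its Nanog alleles, grown in serum with LIF. For 48 hours they received either DMSO, the vehicle, at 0.1% of the volume, or 100 μM MB-3, a small-molecule inhibitor of Kat2a (Gcn5) carried in the same volume of DMSO. H3K9ac was mapped by chromatin immunoprecipitation and sequencing (ChIP-seq) from duplicate cultures. The duplicates were merged before peaks were called against input, for which the authors named a rather low read number as the reason. The merging leaves 1 list per treatment (11724 peaks in DMSO and 4673 in MB-3), no replicate and no peak height or read depth to compare. RNA was sequenced from 3 cultures per treatment, lettered A, B and C, to a depth of 42270312 to 51137896 counts per library. Of the 12 ES cell markers examined all were tested in the RNA. None passed the edgeR quasi-likelihood test at an adjusted p of 0.05, which 0.205% of all tested genes did. An unadjusted p under 0.05 was reached by 3 (25%, beside 10.9% of all tested genes). DESeq2 and limma-voom called 0 each (beside 0.959% and 0.0899% of all genes). The summed level of these markers was 5526 to 6165 CPM (counts scaled to library size) in the DMSO and 5615 to 5928 CPM in the MB-3 libraries. This sum joined members with opposite signs. Klf4, Tfcp2l1 and Esrrb were at log2 fold changes of MB-3 against DMSO of -0.15, -0.17 and -0.07. In each of them all MB-3 libraries lay below all DMSO libraries. Utf1 was at 0.27, with libraries that overlapped between the groups.

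Acetylation of lysine 9 neutralises a positive charge on the tail of histone H3 and marks the nucleosomes around active transcription start sites. Kat2a and its close relative Kat2b place it as the catalytic subunits of the SAGA and ATAC complexes, proteins with bromodomains or YEATS domains bind it, and histone deacetylases remove it. In ES cells the mark sits mainly at CpG-rich promoters, including those of genes that every cell uses. The width of a peak in such a list is the stretch over which reads exceeded the background by the caller's criterion, so a region can drop off a list while some of the mark remains, and the positions alone do not separate the 2 cases.

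The bases under the peaks were not read, because the peaks are placed on mm9 and the genome at hand was of another build. What can be shown is the promoter of a gene that lies nearest to a wide lost peak. Names of nearest genes came from the first 1999 rows of the authors' peak table, which cover chromosome 1, chromosome 10 and chromosome 11 up to base 100944504 of mm9, and all 1999 rows match a deposited DMSO peak in position. These rows hold 189 wide lost peaks and 182 gene names, 179 of which matched a counted gene. The distance from a peak to its gene's start was not used here, so a peak need not lie on the promoter shown. The sequences given are the 250 bases before the RefSeq start on GRCm38.p6, read 5′ to 3′ on the gene's strand, with each CpG in capitals. They are shown for the gene of the widest lost peak (Gli2, chr1:119053620-119053869, minus strand, 22 CpG), for the genes with the largest RNA difference in each direction among those with over 100 counts in every library and no overlap between groups (Tmem63a, chr1:180942268-180942517, plus strand, 23 CpG, and Cdk12, chr11:98203055-98203304, plus strand, 25 CpG), and for a gene with a different kind of promoter (Krt10, chr11:99389365-99389614, minus strand, 2 CpG).
Gli2: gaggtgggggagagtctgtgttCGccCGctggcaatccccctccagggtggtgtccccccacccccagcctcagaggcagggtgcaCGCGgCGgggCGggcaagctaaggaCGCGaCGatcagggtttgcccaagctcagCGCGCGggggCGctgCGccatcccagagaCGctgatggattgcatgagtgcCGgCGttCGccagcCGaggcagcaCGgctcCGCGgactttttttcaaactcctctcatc
Tmem63a: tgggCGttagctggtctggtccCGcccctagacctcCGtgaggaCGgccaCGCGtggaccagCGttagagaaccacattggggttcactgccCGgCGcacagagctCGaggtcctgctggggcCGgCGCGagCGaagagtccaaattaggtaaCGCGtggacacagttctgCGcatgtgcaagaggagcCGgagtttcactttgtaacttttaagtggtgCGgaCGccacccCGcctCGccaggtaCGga
Cdk12: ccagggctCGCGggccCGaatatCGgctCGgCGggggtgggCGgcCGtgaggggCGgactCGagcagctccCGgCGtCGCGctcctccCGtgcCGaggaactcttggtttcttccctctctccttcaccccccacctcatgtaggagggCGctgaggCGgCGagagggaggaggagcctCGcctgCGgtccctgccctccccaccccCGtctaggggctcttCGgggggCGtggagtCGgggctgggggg
Krt10: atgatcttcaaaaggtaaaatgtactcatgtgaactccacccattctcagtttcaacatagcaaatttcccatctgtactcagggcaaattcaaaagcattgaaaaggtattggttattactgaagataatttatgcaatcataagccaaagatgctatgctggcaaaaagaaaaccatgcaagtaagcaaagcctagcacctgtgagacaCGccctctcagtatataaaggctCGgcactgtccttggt

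The first 3 are CpG-rich and hold no TATAAA, while the Krt10 stretch, for a keratin of the upper epidermis, holds TATAAA shortly before its start. Windows of the kind in Gli2, Tmem63a and Cdk12 were the rule. In the 300-base windows of RefSeq, which run from 250 bases before to 50 bases after the first listed start, 133 of the 148 genes of wide lost peaks with a window had 10 or more CpG (89.9%), against 276 of 304 genes that had wide kept peaks and no wide lost one (90.8%) and 43.9% of all 27025 windows. The median was 23 CpG for the lost, 24 for the kept and 7 for all windows. A set of 6 motifs of transcription factors and the general machinery was searched on both strands, and none of their words contains another. The Myc/Max E-box CACGTG stood in 12.2% of the lost, 16.8% of the kept and 7.24% of all windows. Either of the E2F words TTTCCCGC and TTTGGCGC stood in 4.05%, 6.25% and 1.63%, and the ETS word CCGGAAGT in 8.11% of the lost, 9.54% of the kept and 1081 of the 27025 windows. For the palindromic NRF1 word the shares were 2.03%, 3.29% and 0.977%, and for the cyclic AMP response element TGACGTCA 4.73%, 4.61% and 1.88%. TATAAA was the one word less frequent in both gene groups (6.08% and 7.89%) than in all windows (14.2%). These are matches of letters and not measured binding sites.

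Among wide peaks, those that were lost were the narrower ones. The share without an MB-3 peak was 47.6% at 700 to 799 bp (443 of 931 peaks, Wilson 95% interval 44.4 to 50.8), 28.0% at 900 to 999 bp (145 of 518, 24.3 to 32.0) and 15.6% at 1200 to 1499 bp (72 of 461, 12.6 to 19.2). Past 2000 bp it was 2.24% (3 of 134, 0.764 to 6.38), and over all wide peaks 29.7% (1083 of 3642, 28.3 to 31.2). All such intervals cover counting error only. The median width was 835 bp for wide lost peaks (quartiles 755 and 977) and 996 bp for wide kept peaks (839 and 1295), and 245 wide lost peaks reached 1000 bp, 25 reached 1500 bp and 3 reached 2000 bp. At the limit itself, 7 lost peaks were exactly 700 bp and 8 were 699 bp, and 57 lay at 700 to 709 bp against 62 at 690 to 699 bp, so the limit cuts through a continuous run of widths. On the other side of the rule, wide kept peaks were seldom kept by a sliver. MB-3 peaks covered a median of 56.4% of a wide kept peak (quartiles 40.6 and 73.0), 6 of the 2559 shared under 100 bp, and the smallest overlap was 31 bp.

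**Figure D1:**
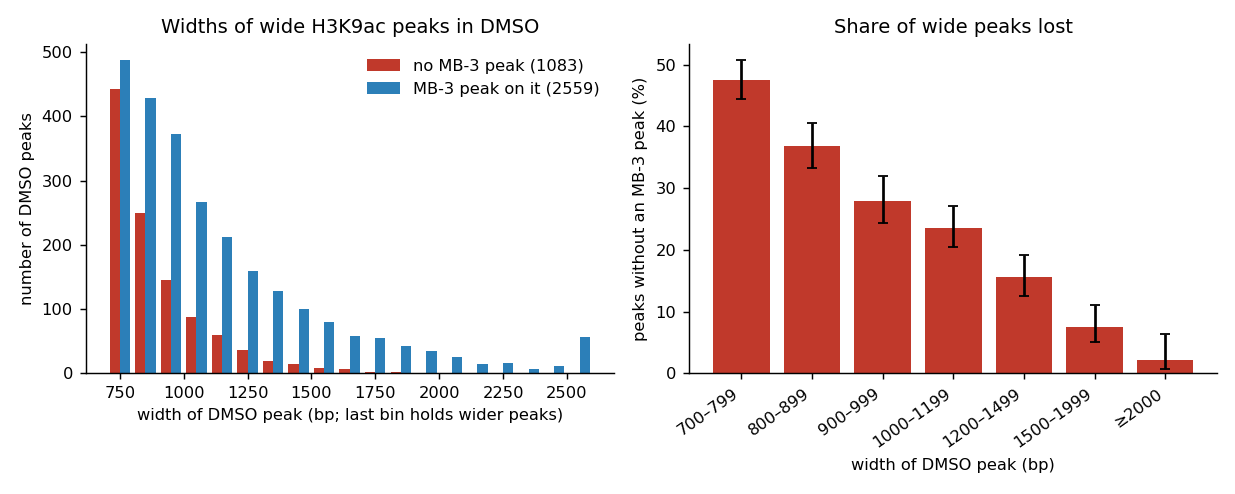
The left plot counts DMSO peaks of 700 bp or more by width in bp, in 100 bp bins, for peaks without an MB-3 peak (red, 1083) and with one (blue, 2559). The right plot gives the share of peaks without an MB-3 peak in each width class, with Wilson 95% intervals as bars, which goes from 47.6% in the narrowest class to 2.24% at 2000 bp and more.

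The nearest MB-3 peak was usually far away. Measured edge to edge, the median gap was 44631 bp (95% interval 37434 to 49953, quartiles 4908 and 154384), with 212 wide lost peaks (19.6%) under 1000 bp from an MB-3 peak, 711 (65.7%) under 100000 bp and 56 over 1 Mb. The narrow lost peaks gave a median of 43716 bp (41236 to 47471). The gap was short for peaks beside a kept DMSO peak, which by definition has an MB-3 peak on it. The 229 wide lost peaks with a kept DMSO peak within 1000 bp lay a median of 456 bp from an MB-3 peak (401 to 509). The 561 that stood alone, with no other DMSO peak within 1000 bp, had a median of 75204 bp (61540 to 94983), and the 293 beside lost peaks only had 80742 bp (68994 to 91761). Since the rule used the MB-3 list, these distances describe the members and were not tested.

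**Figure D2:**
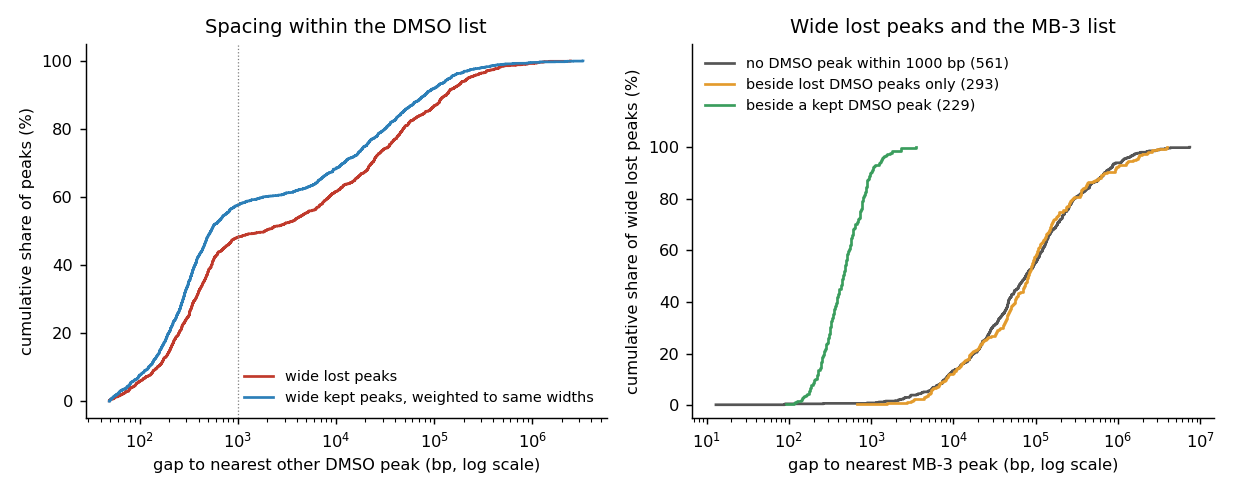
The left plot gives the cumulative share of peaks against the gap to the nearest other DMSO peak (bp, log axis) for wide lost peaks (red) and for wide kept peaks weighted to the same widths (blue), and at the dotted line of 1000 bp the curves stand at 48.2% and 57.6%. The right plot gives the cumulative share of wide lost peaks against the gap to the nearest MB-3 peak (bp, log axis) in 3 classes by their DMSO neighbours, where the 229 peaks beside a kept peak have a median of 456 bp and the other classes medians of 75204 and 80742 bp.

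Wide lost peaks had their nearest DMSO neighbour farther away than wide kept peaks of the same width. Kept peaks were weighted so that their widths, in 50 bp bins, followed those of the lost peaks, after which the kept median width was also 835 bp. The gap to the nearest other DMSO peak had a median of 1876 bp for wide lost peaks (859 to 3726) and 531 bp for the weighted kept peaks. Another DMSO peak lay within 1000 bp of 522 wide lost peaks (48.2%, 45.2 to 51.2), against 57.6% of the weighted kept peaks, 59.1% of kept peaks without weights and 49.8% of narrow lost peaks (48.6 to 51.0). No other DMSO peak lay within 10 kb of 425 wide lost peaks (39.2%, 36.4 to 42.2), against 32.3% of the weighted kept and 38.7% of the narrow lost peaks. The mean number of other DMSO peaks within 10 kb differed little, at 1.15 for wide lost and 1.18 for the weighted kept peaks. On the shares with a neighbour within 1000 bp and with none within 10 kb, wide lost peaks stood nearer to the narrow lost peaks than to the kept peaks of their own width. With 1 list per treatment the difference has no replicate check.

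The close neighbours of wide lost peaks were lost in a share near that of all DMSO peaks. Of the 522 nearest neighbours within 1000 bp, 320 were lost (61.3%, 57.1 to 65.4), beside 7521 of all 11724 DMSO peaks (64.2%). They were 270 narrow and 50 wide lost peaks, and the other 202 (38.7%, 34.6 to 42.9) were kept, whereas for wide kept peaks 720 of 1512 such neighbours were kept (47.6%, 45.1 to 50.1). The 202 kept neighbours lay a median of 277.5 bp away. They were 793 bp wide at the median, without a lower limit on their width, and were wider than the lost peak in 85 of 202 pairs. When DMSO peaks within 1000 bp of each other were joined, 1049 joined regions held a wide lost peak. Of these, 561 were a single wide lost peak, lost by the rule itself, and among the 488 with 2 or more DMSO peaks every peak was lost in 267 (54.7%, 50.3 to 59.1). Of the others, where part of an acetylated domain was still called, a region on chromosome 2 held 8 DMSO peaks. Its wide lost peaks chr2:162882314-162883222 (909 bp) and chr2:162884904-162886094 (1191 bp) each had 8 other DMSO peaks and 3 MB-3 peaks within 10 kb. They lay 477 and 626 bp from the nearest MB-3 peak. Wide lost peaks on chromosomes 4, 7 and 9 also had 8 other DMSO peaks within 10 kb, the largest number found.

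Among all wide peaks, within the joined regions and beyond them, loss seldom ran in long stretches. For 322 of the 1083 wide lost peaks (29.7%, 27.1 to 32.5) the nearest other wide DMSO peak was also lost, which is close to the 28.3% found for wide kept peaks (724 of 2559, 26.6 to 30.1) and to the share lost over all wide peaks. By distance, the shares were 28.6% of 185 (22.6 to 35.5) for lost against 20.6% of 642 (17.6 to 23.9) for kept peaks where that peak lay under 1000 bp away, and 35.4% of 127 (27.7 to 44.1) against 27.9% of 265 (22.9 to 33.6) at 1000 to 10000 bp. At 10000 to 100000 bp they were 31.1% of 363 (26.6 to 36.1) against 29.0% of 848 (26.1 to 32.2). Past 100000 bp the order was the opposite, at 27.2% of 408 (23.1 to 31.7) against 33.8% of 804 (30.6 to 37.2). Read along each chromosome, wide lost peaks formed 746 runs uninterrupted by a wide kept peak, of which 521 held 1 peak, 145 held 2 and 60 held 3. Runs of 2 or more peaks held 562 of the 1083 wide lost peaks. The longest runs held 8 peaks each. One covered 316770 bp on chromosome 7 (chr7:148042463-148359232), and the other was spread over 8518617 bp of chromosome 8 (chr8:35870501-44389117).

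The widest members show both settings. The widest, chr1:120948479-120951170 (2692 bp), has Gli2 as its nearest gene, had 1 narrow lost peak within 10 kb, and lay 662806 bp from the nearest MB-3 peak. A peak of 1883 bp on chromosome 2 (chr2:157853384-157855266) had no DMSO peak and no MB-3 peak within 10 kb, and its nearest DMSO peak, a kept one of 1389 bp, was 330480 bp away. By contrast, the 1853 bp peak chr17:24857143-24858995 had 3 other DMSO peaks and 2 MB-3 peaks within 10 kb, the nearer at 427 bp, and the 1867 bp peak chr15:98820476-98822342 lay 1556 bp from an MB-3 peak, beside a lost peak of 296 bp. The peak farthest from any MB-3 peak was chrX:83437152-83438259 (1108 bp), at 7438263 bp. The nearest was chr11:74738609-74739619 (1011 bp), which an MB-3 peak missed by 13 bp.

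**Figure D3:**
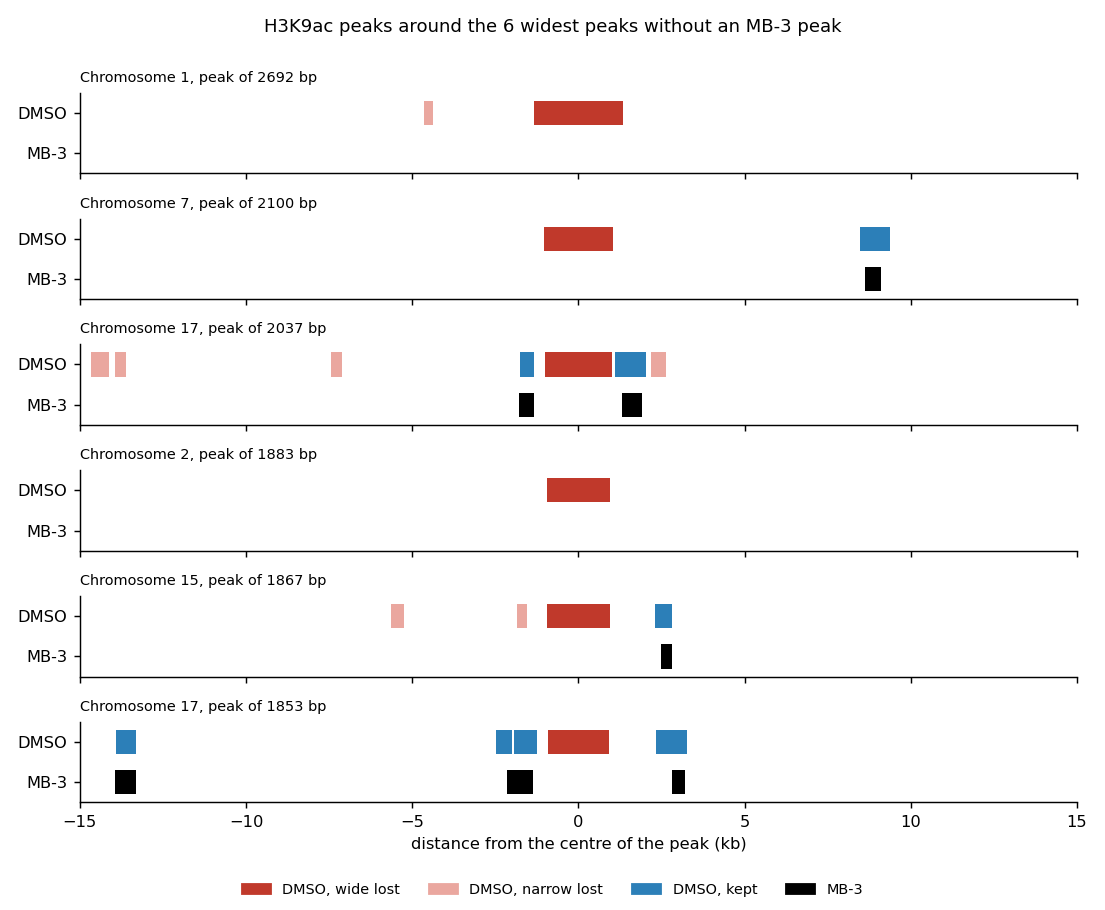
Each row shows 15 kb to either side of the centre of one of the 6 widest peaks without an MB-3 peak, with distance from that centre in kb on the horizontal axis, DMSO peaks above and MB-3 peaks below. Wide lost peaks are dark red, narrow lost peaks pale red, kept DMSO peaks blue and MB-3 peaks black. The peaks of 2692 and 1883 bp have no MB-3 peak in the window, and those of 2037 and 1853 bp have MB-3 peaks on both sides.

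Wide lost peaks were found on all 21 chromosomes, and on the autosomes in similar shares. Between 22.1% (chromosome 6, 36 of 163 wide peaks, 16.4 to 29.1) and 33.4% (chromosome 7, 104 of 311, 28.4 to 38.9) of an autosome's wide peaks were lost. The intervals of 18 of the 19 autosomes included the pooled 29.7%, chromosome 6 being the exception. From peak widths alone, with each width bin of 50 bp losing its pooled share, the autosomes would lie between 27.1% and 31.5%. Chromosome X had the highest share among chromosomes with more than 2 wide peaks, at 35.3% (24 of 68), with an interval of 25 to 47.2 that included the pooled share, and chromosome Y had 1 of 2.

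**Figure D4:**
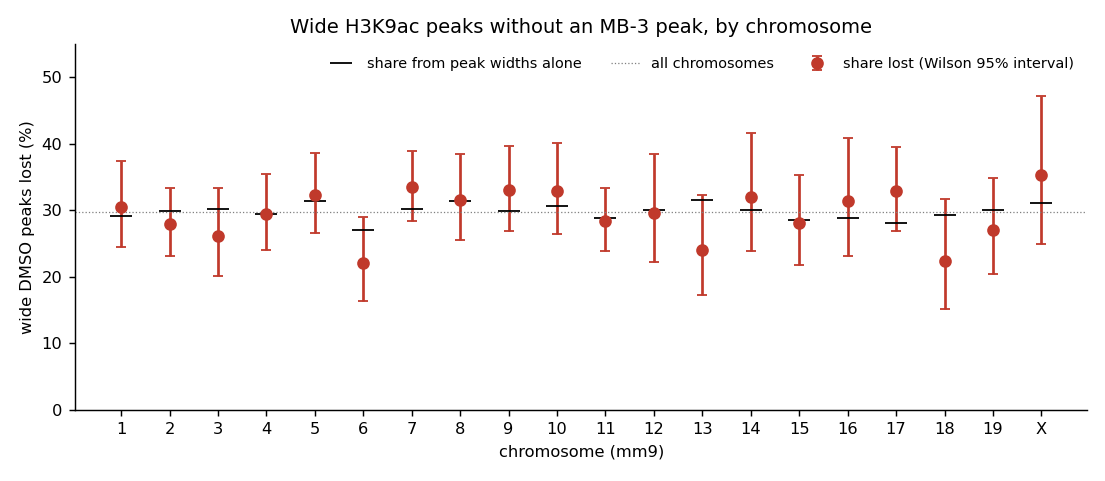
Share of wide DMSO peaks without an MB-3 peak on each chromosome of mm9 except Y, in percent (red points, Wilson 95% intervals as bars), with the share that the widths of its peaks alone would give (black dashes) and the share over all chromosomes (dotted line). The points run from 22.1% on chromosome 6 to 35.3% on chromosome X, and most intervals cross the dotted line.

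The genes nearest to wide lost peaks were transcribed, at a median level between that of all tested genes and that of the genes of wide kept peaks. In DMSO the 178 tested genes of wide lost peaks had a median of 9.78 RPKM (reads scaled to library size and to kilobases of exon; quartiles 5.04 and 24.0), against 20.5 RPKM (10.7 and 42.8) for the 351 tested genes with wide kept peaks and no wide lost one and 3.60 RPKM for all 20027 tested genes. The order was the same in each library. The median of the genes of wide lost peaks was 10.0, 9.84 and 9.65 RPKM in DMSO A, B and C and 9.96, 9.88 and 10.1 RPKM in MB-3 A, B and C, and that of the genes of wide kept peaks was 20.2 to 21.5 RPKM over the 6 libraries. Only 5 genes of wide lost peaks (2.81%) were under 1 RPKM, as were 3.13% of the genes of wide kept peaks and 28.7% of all tested genes. With kept peaks weighted to the widths of the lost ones, and each peak counted once, the medians were still 9.87 RPKM over 185 wide lost and 18.2 RPKM over 427 wide kept peaks.

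The level also differed within the group. Genes of wide lost peaks with a kept DMSO peak within 1000 bp had a median of 18.4 RPKM (47 peaks), those of peaks that stood alone 9.59 RPKM (95 peaks) and those of peaks beside lost peaks only 9.59 RPKM (43 peaks). Read the other way, the 612 wide peaks of tested genes were split into 4 equal groups by the DMSO level of their gene. The share that was lost was 49.0% in the lowest group (75 of 153, up to 8.48 RPKM, 41.2 to 56.9), 32.7% and 23.5% in the middle ones and 15.7% in the highest (24 of 153, above 37.7 RPKM, 10.8 to 22.3). Peaks were also wider at higher levels, with median widths of 850, 940, 954 and 1038 bp from the lowest to the highest group.

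With treatment as the only term of the fit, no gene assigned to a wide lost peak passed the threshold for a change in RNA level. Of the 178 tested, 0 had an adjusted p under 0.05 in the edgeR test (quasi-likelihood, Benjamini-Hochberg adjusted over all genes), in a comparison that called 41 of 20027 genes (0.205%). An unadjusted p under 0.05 was reached by 20 of the 178 (11.2%), as by 10.9% of all tested genes, and limma-voom called 0 of them (0.0899% of all genes) and DESeq2 3 (1.69%, beside 0.959% of all genes). The fitted log2 fold changes of MB-3 against DMSO ran from -0.55 to 0.83 with a median of 0.01, beside a median of 0.00 over all genes, and no gene reached 2-fold. In 30 genes (16.9%) the 3 MB-3 libraries all lay on one side of the 3 DMSO libraries, 23 above and 7 below, where over all tested genes this held for 15.6% (8.22% above and 7.37% below) and among the 351 tested genes with wide kept peaks and no wide lost one for 57 (16.2%, 42 above and 15 below). The 131 genes whose DMSO peaks were all lost gave the same picture, with 0 called by edgeR (14 with an unadjusted p under 0.05) and a median of 0.01. Among those 351 genes of wide kept peaks, edgeR called 0 (34 with an unadjusted p under 0.05), limma-voom 0 and DESeq2 2, and the median was 0.02. The count over all genes depended on single libraries. It was 3, 520 and 5 without DMSO A, B or C and 0, 0 and 62 without MB-3 A, B or C, and among the genes of wide lost peaks 3 passed without DMSO B, 1 without MB-3 C and 0 in the other cases. Nothing states that the RNA libraries came from independent passages, so the p-values measure only the spread between these libraries, which may be technical.

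Tmem63a, which encodes a mechanosensitive cation channel, had the lowest fold change in the group. Its level was 13.7, 12.1 and 15.6 CPM in DMSO A, B and C and 9.16, 8.47 and 10.7 CPM in the MB-3 libraries. All MB-3 values lay below all DMSO values, with a log2 fold change of -0.55 (SE 0.11, edgeR adjusted p = 0.0727), and it passed the threshold in 5 of 12 alternative analyses. Its single DMSO peak (chr1:182871976-182872701, 726 bp) was 36958 bp from an MB-3 peak, and its exons overlap a gene on the opposite strand, whose reads cannot be told apart from its own here, since the use of strand is not stated. Shmt2, the mitochondrial enzyme that splits serine into glycine and a one-carbon unit, also had 1 DMSO peak, which was lost (914 bp, 209915 bp from an MB-3 peak). It was at 243, 233 and 248 CPM in DMSO and at 202, 200 and 223 CPM in MB-3, groups that did not overlap, for a log2 fold change of -0.21 (SE 0.06, edgeR adjusted p = 0.210), again with an overlapping gene on the other strand. Cnpy2, an endoplasmic reticulum protein, was at -0.18, Ascc1, a subunit of a transcriptional coactivator complex, at -0.08, and Cdc6, which loads the replicative helicase at origins, at -0.08, all without overlap of the groups and none past the threshold.

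On the other side stood Cdk12, a kinase of the RNA polymerase II tail, and Txnrd1, the cytosolic thioredoxin reductase. Cdk12 was at 116, 95.4 and 102 CPM in DMSO and 137, 122 and 121 CPM in MB-3. The MB-3 libraries were all above the DMSO libraries, with a log2 fold change of 0.28 (SE 0.08, edgeR adjusted p = 0.194), and its wide lost peak of 1215 bp lay beside kept peaks, 314 bp from an MB-3 peak. Txnrd1 was at 242, 245 and 229 CPM in DMSO and 274, 275 and 304 CPM in MB-3, again apart, with a log2 fold change of 0.25 (SE 0.06, edgeR adjusted p = 0.128). Both of its DMSO peaks were lost, the wide one (856 bp) 683497 bp from an MB-3 peak. Mreg, which acts in melanosome transport, was at 0.22 and Lemd1, a LEM domain protein with 2 wide lost peaks, at 0.22. The highest fold change, 0.83 for Pbld2, rests on 16 to 44 counts per library and had an edgeR adjusted p of 0.353.

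**Figure D5:**
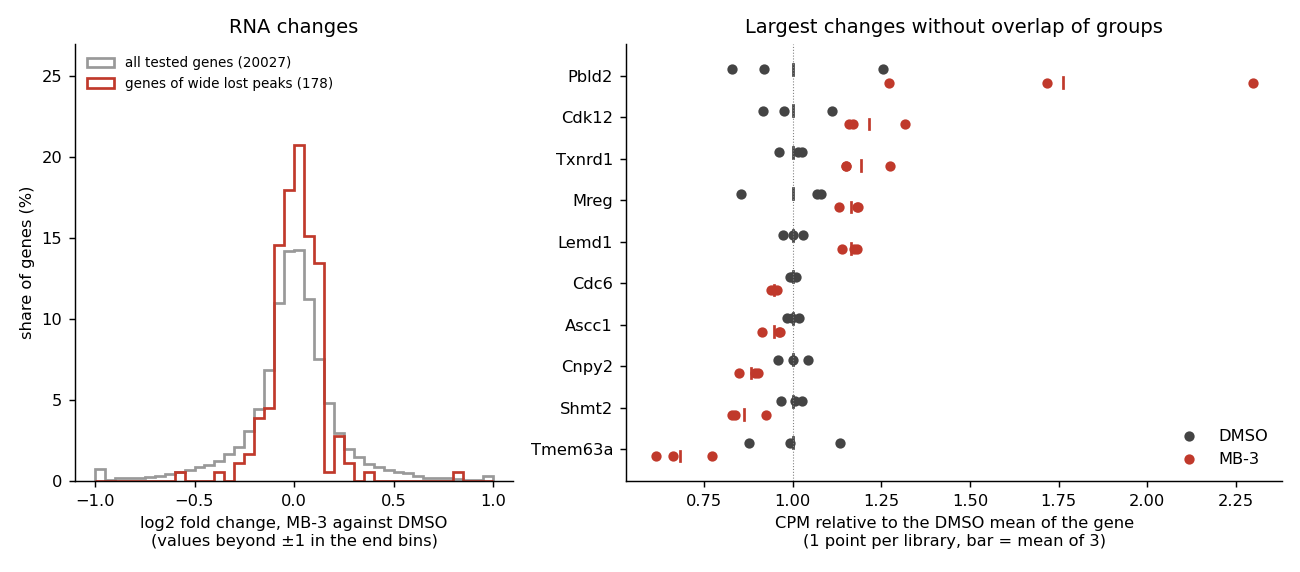
The left plot gives the share of genes by log2 fold change of MB-3 against DMSO, in bins of 0.05 log2 units, for all 20027 tested genes (grey) and for the 178 genes of wide lost peaks (red), and both distributions centre on 0. The right plot gives the CPM of each library relative to the DMSO mean of the gene (points, DMSO black, MB-3 red, bars the mean of 3 libraries) for the 5 highest and 5 lowest fold changes without overlap of the groups, from Pbld2 to Tmem63a, none of which passed the threshold.

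None of the tested genes of the widest lost peaks passed the edgeR test, which called 0.205% of all tested genes. At that share so few genes would seldom hold a call. Gli2, a transcription factor of Hedgehog signalling and nearest to the widest lost peak, was at 72.9, 64.6 and 61.6 CPM in DMSO and 76.1, 75.3 and 67.1 CPM in MB-3. The groups overlapped, and the log2 fold change was 0.13 (SE 0.07, edgeR adjusted p = 0.530), although none of its 3 DMSO peaks was kept. For the other 8 tested genes nearest to the 10 widest peaks with a gene name, the fold changes ran from -0.16 for Krt10 to 0.21 for Fbxo36, an F-box protein at 1.00 RPKM. Between them were Rmnd5b, a ubiquitin ligase subunit (-0.05), Tefm, the mitochondrial transcription elongation factor (0.08), Nabp1, a single-stranded DNA binding protein (0.09, groups apart), Nsl1, a kinetochore subunit (0.02), Sept10, a septin (-0.07), and Zc3h11a, a zinc finger protein (-0.07). Tex44, a testis-expressed gene, had 1 peak in this set and was not tested, with counts in 1 of 6 libraries.

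Several genes had more than 1 wide lost peak. Ptma, for the abundant acidic protein prothymosin alpha, had 3 (949, 1072 and 794 bp) among 10 DMSO peaks, 4 of which were kept, and each lay within 456 bp of an MB-3 peak. At 251 RPKM it was the most highly expressed of the genes named here, and its level was 365, 386 and 352 CPM in DMSO and 359, 405 and 372 CPM in MB-3 (log2 fold change 0.04, groups overlapping). Pawr, a pro-apoptotic protein, lost all 7 of its DMSO peaks and had 36.0, 33.3 and 44.8 CPM in DMSO against 29.3, 27.3 and 36.4 CPM in MB-3. These groups overlapped too (log2 fold change -0.29, SE 0.12, edgeR adjusted p = 0.365). Dedd, a death effector domain protein, lost all 3 of its DMSO peaks (fold change 0.21, groups apart), and Ranbp17, an importin relative (0.03), and Utrn, which encodes utrophin (0.10), kept 1 DMSO peak each. Among the genes named here, Dedd, Hdac4, Krt10, Lemd1, Pbld2, Rai1, Ranbp17 and Rmnd5b overlap a gene on the opposite strand. Lemd1 also overlaps one on its own strand, and Zc3h11a one on its own strand only. Of the cell type markers named in this report, Dab2, Eomes and Pdgfra overlap a gene on the opposite strand. Pdgfra, Col3a1 and Tfcp2l1 overlap one on their own strand. The counts of all these genes are uncertain in the same way as those of Tmem63a.

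No gene of the machinery that writes, removes and reads acetyl-lysine passed the edgeR test, which called 0.205% of all tested genes. DESeq2 called 0.959% of all genes and limma-voom 0.0899%. At such shares lists of 18 to 28 genes would seldom hold a call. The counts of the other lists below stand beside the same shares. Which genes of the machinery lie at wide lost peaks was examined only for the 189 wide lost peaks with a gene name, of 1083. Kat2a, the target of MB-3, was at 126, 139 and 127 CPM in DMSO and 124, 131 and 133 CPM in MB-3, and Kat2b at 62.6, 58.3 and 52.2 against 58.6, 56.5 and 59.7 CPM. Both overlapped between groups, at log2 fold changes of -0.01 and 0.01. By edgeR 0 of 28 acetyltransferases and SAGA or ATAC subunits, 0 of 20 deacetylases and corepressors and 0 of 18 acetyl-lysine readers passed. An unadjusted p under 0.05 was reached by 1, 3 and 1 of them (3.57%, 15% and 5.56%, beside 10.9% of all genes), and DESeq2 and limma-voom also called 0 in each of these lists. Among the genes of those peaks, the first list had no member, the second had Hdac4, a class IIa deacetylase (0.08), and the third Yeats4, a YEATS domain reader (-0.06, 762 bp peak 175 bp from an MB-3 peak). Of 33 genes of the pluripotency network, edgeR called 1, Tbx3, lower (3.03%, beside 0.205% of all genes). An unadjusted p under 0.05 was reached by 12 (36.4%, beside 10.9%), and DESeq2 called 4 (12.1%, beside 0.959%) and limma-voom 1 (3.03%, beside 0.0899%). Among the genes assigned it had Prdm14, a transcriptional regulator of naive pluripotency (0.05). Tcf3 (0.06) was also on the list by its name, but this gene encodes the E2A proteins and is not the factor of the ES cell network once called Tcf3, which is Tcf7l1. The study's panel of Kat2a targets contributed Ddit4, an inhibitor of mTORC1 signalling (-0.22, edgeR adjusted p = 0.523, groups overlapping), and Rai1 (0.14). By edgeR 0 of its 45 tested genes passed (6 with an unadjusted p under 0.05, 13.3% beside 10.9% of all genes, 1 called by DESeq2, 2.22% beside 0.959%, and 0 by limma-voom). Mrpl45 (-0.09) stood for the mitochondrial ribosome and respiratory chain, 0 of whose 185 tested genes passed by edgeR (7 with an unadjusted p under 0.05, 3.78% beside 10.9% of all genes, 0 by DESeq2 and limma-voom), and Foxo3 (-0.03) for the developmental transcription factor families. Of the 107 tested genes of these families, 3 were higher (Sox21, Zic2 and Zic5) and 2 lower (Tbx3 and Lhx1) by edgeR (4.67%, beside 0.205% of all genes). Among the 107, 26 had an unadjusted p under 0.05 (24.3%, beside 10.9%), and DESeq2 called 9 (8.41%, beside 0.959%) and limma-voom 2 (1.87%, beside 0.0899%). These 5 genes were named after their values were seen. None of them was among the genes assigned, which come from chromosome 1, chromosome 10 and part of chromosome 11 only. Cytosolic ribosomal proteins, a list by symbol that also takes in pseudogenes and ribosomal protein kinases, had no member among the genes assigned and 0 of 335 called by edgeR (21 with an unadjusted p under 0.05, 6.27% beside 10.9% of all genes, 1 by DESeq2, 0.299% beside 0.959%, and 0 by limma-voom).

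Of the markers of other cell types that an ES culture can hold, the sums of the mesendoderm and the fibroblast-like lists did not overlap between the groups. The mesendoderm markers summed to 25.1, 15.2 and 46.6 CPM in DMSO and to 10.0, 7.95 and 13.5 CPM in MB-3, with T, the Brachyury gene, the most abundant. T was at a log2 fold change of -1.89 (SE 0.36, edgeR adjusted p = 0.0611). Mixl1, a homeobox gene of the primitive streak, was at -1.90 (SE 0.35, edgeR adjusted p = 0.0507). Both had all MB-3 libraries below all DMSO libraries and passed the threshold in 4 of 12 alternative analyses. The other tested members of this list, Eomes (-0.69, edgeR adjusted p = 0.287) and Gsc (-0.22), overlapped between the groups. The fibroblast-like markers summed to 10.3, 8.39 and 11.8 CPM in DMSO and to 7.17, 7.40 and 7.35 CPM in MB-3, with Thy1 the most abundant. The collagen genes Col1a1 and Col1a2 were at -1.32 and -1.27 without overlap of the groups (edgeR adjusted p = 0.145 and 0.106), past the threshold in 3 and 4 of the 12. Pdgfrb, at -0.48, did not overlap either. Thy1 (-0.11), Col3a1 (-0.13), Dcn (-0.05) and Pdgfra (-0.36) overlapped between the groups, so the fall was not shared by the whole list. Extraembryonic endoderm markers summed to 8.37 to 11.9 CPM in DMSO and 7.76 to 9.35 CPM in MB-3, and neuroectoderm markers to 113 to 129 CPM and 111 to 116 CPM, with Dab2 and Tubb3 the most abundant. The neuroectoderm sum joined members with opposite signs, Nes, an intermediate filament of neural progenitors, at -0.71 (SE 0.22) and Pax6, a transcription factor, at 0.38 (SE 0.12), whose libraries overlapped between the groups (edgeR adjusted p = 0.25 and 0.26). Tubb3, a neuronal tubulin, was at 24.96 RPKM in DMSO, Nes at 6.83 RPKM and T at 8.36 RPKM. By edgeR 0 of the 19 tested markers in these lists passed (beside 0.205% of all genes), while 8 had an unadjusted p under 0.05 (42.1%, beside 10.9%). DESeq2 called 2 (10.5%, beside 0.959%) and limma-voom 0 (beside 0.0899%). None of these markers was nearest to a wide lost peak among the genes assigned. Those genes come from chromosome 1, chromosome 10 and part of chromosome 11 only. T, Eomes, Col1a2, Nes, Pax6 and Tubb3, among others, lie on other chromosomes and could not have been assigned. The part of the markers in the absence of peaks was not tested. In cultures of mixed cells, fewer cells of a type and less of the mark or RNA per cell cannot be told apart.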

How the data were processed

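For H3K9ac ChIP-seq, the authors aligned the reads of duplicate cultures to mm9 with BWA, merged the duplicates with samtools, called peaks against input with MACS2 at a q-value under 0.01, and deposited 1 list of positions per treatment with no score. Positions are given from base 1 on mm9 and were not converted. The 2 input samples were not used here. For RNA-seq, the authors aligned single-end reads of polyA libraries to mm10 with Bowtie, used GenomicAlignments to count them over exons, and deposited a table of raw counts for 30677 Ensembl genes (0 columns unused). Tool versions and the use of strand are not given in the sources used here.

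The regions and gene lists were chosen with earlier results of these data known. Peak gaps are edge to edge. Kept peaks were weighted by 50 bp width bins to the widths of the lost ones. Intervals are Wilson or rank-based 95% intervals and cover counting error only. Counts were tested with edgeR 4.0.16 (TMM, filterByExpr, glmQLFit and glmQLFTest, treatment as the only term) in R 4.3.3 with Benjamini-Hochberg adjustment at 0.05. In simulated data with 3 libraries per group, this test called 67.3% of 1.5-fold, 81.9% of 2-fold and 97.1% of 4-fold changes. Of its calls there, 10.4% were unchanged genes. Alternatives used DESeq2 1.42.0 and limma 3.58.1. CPM values use TMM library sizes, and RPKM values divide them by exon length in GENCODE M21. Promoters came from RefSeq (GRCm38.p6), matched by symbol for 148 of 179 genes. Named regions were the 10 widest, those farthest from and nearest to an MB-3 peak, the densest, and those at the width limit. Named genes were those of the 10 widest peaks, the 5 highest and 5 lowest fold changes without overlap of groups, genes with several wide lost peaks, and list members.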

Additional observations from a re-analysis of the deposited data

How the results depend on the processing

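The count and share of wide lost peaks followed the definition. With a minimum width of 600, 800 or 1000 bp there were 1780 (36.6% of peaks that wide), 640 (23.6%) and 245 (16.2%). Requiring no MB-3 peak within 500 or 1000 bp gave 951 (26.1%) and 871 (23.9%), counting as lost every peak under 25% covered gave 1179 (32.4%), ignoring MB-3 peaks under 300 bp gave 1334 (36.6%), and merging DMSO peaks within 200 bp gave 1230 (31.6%). Measured centre to centre, another DMSO peak lay within 1000 bp of 19.7% of wide lost and 24.4% of weighted kept peaks. From 1000 bp upward the share was 44.9% for lost and 58.2% for kept, and the median gap to an MB-3 peak was 26938 bp. Without X and Y the shares were 48.4% and 57.6%.

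The number of differentially expressed genes was less stable. It was 41 by edgeR with all libraries, 25 with upper-quartile scaling, 194 without a filter on low counts, 192 with DESeq2 and 18 with limma-voom, and 0 to 520 when 1 library was left out (520 without DMSO B, 0 without MB-3 A or without MB-3 B). Among genes of wide lost peaks, 0 were called in the analysis reported, with RLE or upper-quartile scaling and by limma-voom, 1 without the filter (Tmem63a), 3 by DESeq2 (Cdk12, Tmem63a and Txnrd1), and 0 to 3 with 1 library left out (Stc2, Tmem63a and Txnrd1 without DMSO B). Tmem63a passed in 5 of 12 alternatives. With the replicate letter as a block, 1425 genes passed (7.12%), 15 of them genes of wide lost peaks (8.43% of those tested, 7 higher and 8 lower). The deviations of same-lettered libraries correlated at 0.09, 0.25 and 0.20 for A, B and C, and each DMSO library correlated best with the MB-3 library of its own letter, a hint in the data of shared structure by letter. The samples were not taken as paired because no source states that a letter marks a shared culture and the correlation for A was under 0.1.

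The median log2 fold change of the group ran from 0.00642 (without DMSO C) to 0.0198 (without MB-3 A) over the alternatives. Of 408 values for 34 named genes, 379 kept their direction and side of the threshold, 16 passed the threshold, and 13, all with 1 library left out and none past the threshold, changed sign. With 1 library left out, the log2 fold changes ran from -0.0919 to 0.0179 for Rmnd5b, -0.192 to 0.0165 for Zc3h11a, -0.0191 to 0.0354 for Nsl1, -0.0103 to 0.0800 for Ptma, -0.0271 to 0.0834 for Ranbp17, -0.0240 to 0.0984 for Prdm14, -0.0569 to 0.00660 for Foxo3, -0.0340 to 0.0389 for Kat2a and -0.0542 to 0.0761 for Kat2b. The cause was not tested. The precision of the peak values is limited by lists without depth or replicates, and of the RNA values by 3 libraries per group.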
